A study of Mus musculus with 4 samples.

Results

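The genes described here encode ligands by which a cell restrains macrophages and T cells, together with their receptors: Cd200 and its receptor Cd200r1, Cd47 and its receptor Sirpa, the B7 family ligands Cd274, Pdcd1lg2, Cd80 and Cd86, and the T cell and myeloid receptor Havcr2. Every probe set whose platform annotation gave one of these 9 symbols was taken, which gave 20 probe sets of the 45037 that are not array controls, and 9 of 18193 measured genes. The genes were chosen by their pathway and by the measured differences of Cd200 and Cd47 between these groups, so the differences of these 9 genes between AID-silenced and control clones are given as a description with no test. RNA came from J558, a plasmacytoma line of BALB/c mice (H-2Ld), that is, a tumour of antibody-secreting plasma cells grown in culture. In 2 clones activation-induced cytidine deaminase (AID), the enzyme that mutates and switches antibody genes in activated B cells, had been targeted with a pSilencer vector, and 2 control clones had received the empty silencing vector. All 4 clones also carried a Neo resistance vector and had been selected with G418. The sample titles arrange them as pairs 1 and 2, each with 1 control and 1 AID-silenced clone. Each sample is 1 clone measured on 1 Affymetrix Mouse 430 2.0 array, so differences between groups include differences between clones.

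CD200 is a membrane glycoprotein whose receptor, carried mainly by myeloid cells, recruits Dok adaptor proteins and restrains their activation. CD47 is a widely expressed membrane protein that binds SIRPα on macrophages, where the phosphatases SHP-1 and SHP-2 then hold back phagocytosis. Many tumours carry these ligands, and multiple myeloma, the human plasma cell cancer, is among those in which CD200 has been studied. PD-L1 (Cd274) and PD-L2 (Pdcd1lg2) bind PD-1 and dampen T cells, whereas CD80 and CD86 bind both the activating receptor CD28 and the inhibitory receptor CTLA-4. TIM-3 (Havcr2) is an inhibitory receptor of T cells and myeloid cells.

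Cd200 and Cd47, the members with the clearest differences, lie on mouse chromosome 16, and the 250 bases before their annotated transcription starts are shown to let their start regions be compared. The sequences are those of RefSeq on assembly GRCm38.p6, from the C57BL/6J strain and not from BALB/c, and of the 9 genes 6 had an entry in the table. Capitals mark TGACGT or its reverse complement, the core of the cAMP response element (CRE), and GGGCGG or its reverse complement, the GC box.
Cd200, chr16:45409054-45409303, minus strand: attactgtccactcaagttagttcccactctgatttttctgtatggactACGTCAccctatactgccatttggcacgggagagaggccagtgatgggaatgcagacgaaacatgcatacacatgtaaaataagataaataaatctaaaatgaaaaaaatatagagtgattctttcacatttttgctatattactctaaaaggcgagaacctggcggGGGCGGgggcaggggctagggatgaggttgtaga
Cd47, chr16:49855404-49855653, plus strand: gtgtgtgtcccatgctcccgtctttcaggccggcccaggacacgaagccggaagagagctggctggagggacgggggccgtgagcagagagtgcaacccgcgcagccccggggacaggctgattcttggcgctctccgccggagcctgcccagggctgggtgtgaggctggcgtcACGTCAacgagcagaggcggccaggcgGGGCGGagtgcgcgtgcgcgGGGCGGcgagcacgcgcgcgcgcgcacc
The Cd200 window had 42.4% G and C and 6 CpG dinucleotides, and the Cd47 window had 73.2% and 30. Of the 32851 promoter windows of this length, 16.9% had a lower G and C content than that of Cd200, and 94.3% a lower one than that of Cd47. The CRE core was found once in each, at 201 bases before the start of Cd200 and 75 bases before that of Cd47, and it occurs in 6.47% of all windows on either strand. The GC box began 34 bases before the start in Cd200 and 48 and 28 bases before it in Cd47, and 32.7% of all windows hold it. Neither window held an E-box, CACGTG, which 6.02% of all windows hold. An AP-1 pattern, TGANTCA, which 6.75% hold, was also not found, nor was a TATA box, TATAAA, which 12.4% hold. The full CRE, TGACGTCA, which holds the CRE core within it and is found in 1.55% of windows, was absent from both. So was the box CCAAT, present in 33.8%. Every pattern was searched on both strands, and apart from the CRE core and the full CRE none contains another. These matches describe the letters of the reference and are no evidence of binding. The Cd47 table entry lists 2 starts 7 bases apart, of which the upstream one is shown.

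Signals were MAS5 intensities, scaled so that every array had a trimmed mean of 500. The highest signal of the bacterial control probe sets, which have no target in mouse RNA, was 41.9 and 27.5 on the control arrays and 27.3 and 27.2 on the AID-silenced arrays, pair 1 first, and serves here as a mark of background. The plasma cell identity of the clones was plain: all 8 measured plasma cell markers lay above that mark on every array, with Igha between 37164 and 51693. Of macrophage or monocyte markers, 3 of 10 did so (Csf1r, Cd68 and Fcgr1). Their summed signals were 1301 and 1188 in the controls and 1346 and 1142 after AID silencing. Itgam and C1qa lay below the mark on all 4 arrays, and Lyz2 lay between 21.5 and 49.6. Adgre1 had 46.6 and 20.3 in the controls against 58.2 and 91.6 after AID silencing, above the mark on 3 arrays. Cd14 had 7.7 and 7.8 against 21.7 and 28.2, above the mark on 1 array. Adgre1 and Cd14 were thus higher in both AID-silenced clones than in both control clones. Mertk and C1qb lay above the mark on 2 arrays each, with overlapping groups. Of T cell markers 2 of 8 lay above the mark throughout, Cd8a and Cd28, and Cd3d, Cd4 and Cd5 lay below it on all 4 arrays. Cd3e lay above it in both controls only, with 58.7 and 42.6 against 23.7 and 14.9 after AID silencing. Cd3g had 33.2 and 67.3 against 5.2 and 32.2, above it in the pair 2 clones, and Cd247 17.7 and 16.6 against 21.1 and 37.9. T cell marker sums were 959 and 996 in the controls and 2011 and 597 after AID silencing, most of it Cd28. Of the remaining lists, 3 of 5 NK cell markers (Klrk1, Prf1 and Gzma), 1 of 5 dendritic cell markers (Flt3), 1 of 4 neutrophil markers (Mpo) and 2 of 7 fibroblast or endothelial markers (Col1a2 and Pecam1) lay above the mark on every array. Their part in the results was not tested. In bulk RNA, fewer cells with a transcript and less transcript per cell cannot be told apart.

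Of the 20 member probe sets, 5 lay above the bacterial controls on every array, 3 for Cd47 and 1 each for Sirpa and Cd274. For the other 6 genes no probe set did, so their signals are at or near background in at least 1 clone. A mean signal of about 49.4 or more was needed to enter the tests, and 6 probe sets of 4 genes reached it. The 14 probe sets below it had signals between 1.3 and 63.6. Cd200 reached the filter only through the AID-silenced clones. The plot of all 20 probe sets by clone shows these levels.

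**Figure D1:**
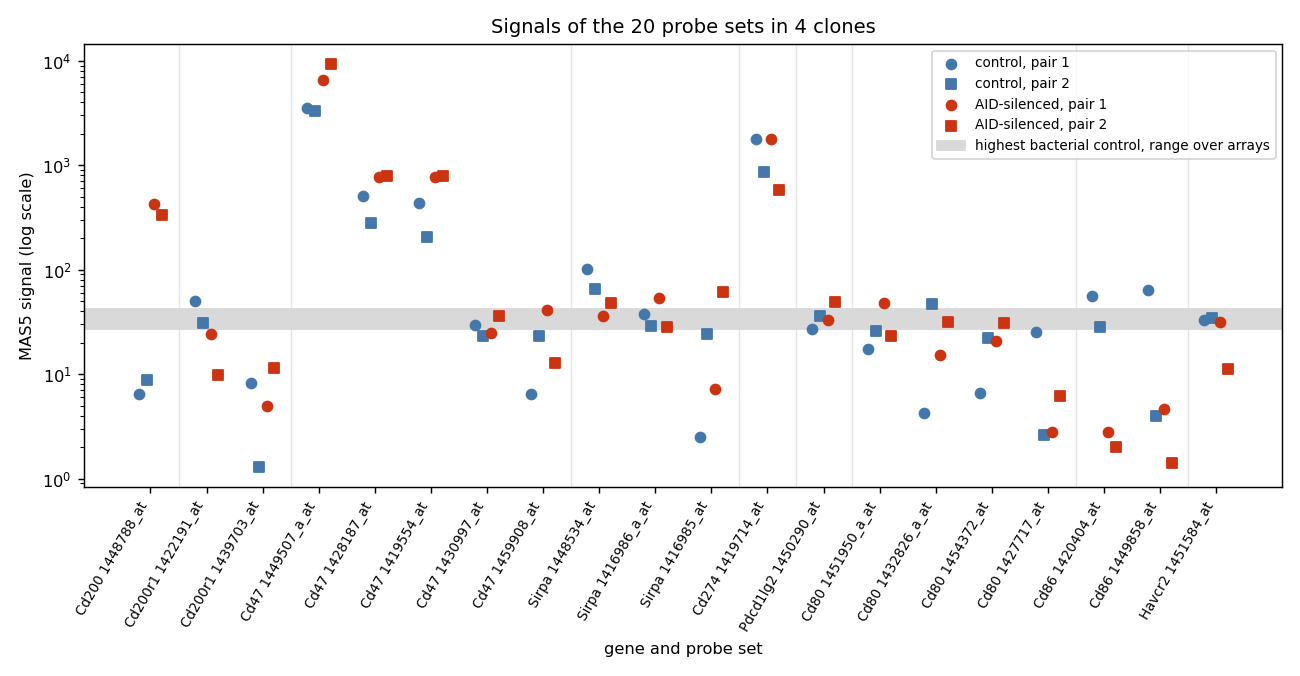
MAS5 signal (vertical, log scale) of each of the 20 probe sets in the 4 clones, blue for control and red for AID-silenced, circles for pair 1 and squares for pair 2. The grey band runs from 27.2 to 41.9, the highest bacterial control signals on the 4 arrays. Cd200 lies below the band in both control clones and far above it in both AID-silenced clones, 3 Cd47 probe sets and Cd274 lie well above it throughout, and most other probe sets lie in or near it.

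Cd200, the ligand, was at background in both control clones and clearly measured in both AID-silenced clones. Its probe set 1448788_at gave 6.5 and 8.7 in the controls, with pair 1 first in each group here and below, against 426 and 336 after AID silencing. The groups lay far apart, and within each group the clones were close. On the log2(signal + 16) scale, used for all differences, the mean was 4.56 ± 0.10 (SD, n = 2) in the control clones and 8.62 ± 0.23 (SD, n = 2) in the AID-silenced clones. The difference was 4.30 in pair 1 and 3.83 in pair 2. Since the control signals carry no usable level, the size of this difference depends on the added constant. Set against the highest bacterial controls of the control arrays instead, with geometric means over the 2 arrays on both sides, Cd200 was at least 11.1-fold higher after AID silencing. The array has a single annotated probe set for Cd200, so no second one bears on the value.

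Cd47, the other ligand, was bright in all 4 clones and brighter in both AID-silenced clones. Its brightest probe set, 1449507_a_at, had signals of 3532 and 3305 in the controls and 6587 and 9303 after AID silencing. The mean log2 value was 11.75 ± 0.07 (SD, n = 2) in the control clones and 12.94 ± 0.35 (SD, n = 2) in the AID-silenced clones. The signals were 1.87-fold apart in pair 1 and 2.81-fold in pair 2. Probe set 1428187_at had 514 and 281 in the controls against 777 and 785, and 1419554_at had 434 and 206 against 778 and 790. At these 3 probe sets neither control clone reached either AID-silenced clone, and the log2 difference was larger in pair 2, at 1.49, 1.43 and 1.86, than in pair 1, at 0.90, 0.58 and 0.82. At both dimmer probe sets, 1428187_at and 1419554_at, the AID-silenced clones were nearly equal, and the control clone of pair 2 was lower than that of pair 1. The remaining probe sets did not follow. Probe set 1430997_at had signals between 23.3 and 36.3 and 1459908_at between 6.5 and 40.7, in both cases near background and with opposite directions in the 2 pairs. Averaged over all 5 probe sets, the difference was 0.82 in place of 1.19.

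Over the 6 tested member probe sets, both AID-silenced clones lay above both control clones at 4, the 1 for Cd200 and 3 for Cd47, which share a gene. They lay below at 1, for Sirpa, and the groups overlapped at 1, for Cd274. Among all 22519 tested probe sets the AID-silenced clones lay above in 15.5% and below in 14% (3492 and 3154 probe sets). Cd200 was the 1 member probe set at least 2-fold higher in both pairs, against 0.488% of all tested probe sets (110). It passed the signal filter only through the AID-silenced clones, so its place in either count is no support for a difference. As the members were chosen with this comparison known, these counts show only where they stand among all probe sets, as does the plot of the differences in pair 1 against those in pair 2.

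**Figure D2:**
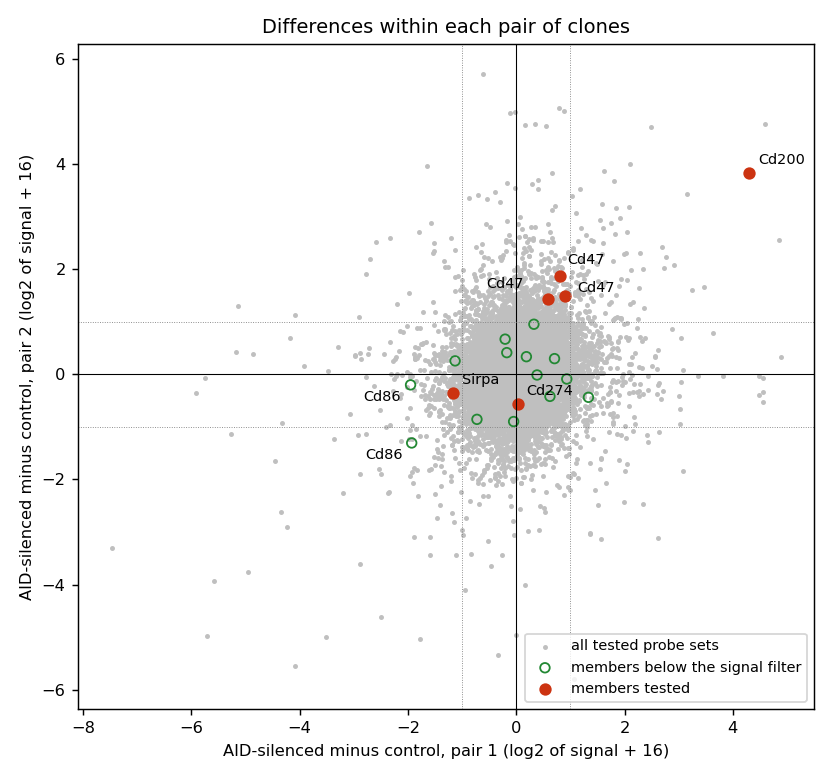
Difference between the AID-silenced and the control clone in pair 1 (horizontal) and pair 2 (vertical), in log2(signal + 16), for all 22519 tested probe sets (grey), the 6 tested member probe sets (red) and the 14 below the signal filter (green, open); dotted lines mark 2-fold. Cd200 lies at 4.30 and 3.83 at the upper right edge of the cloud, the 3 red Cd47 points lie inside its upper margin, and Cd86 lies to the lower left.

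The receptors of these ligands were dim. Cd200r1, the inhibitory CD200 receptor, had signals of 50.6 and 30.9 in the controls and 24.3 and 9.9 after AID silencing at probe set 1422191_at. The control signals lay just above the bacterial controls of their arrays and the AID-silenced signals below. At 1439703_at all signals of Cd200r1 lay between 1.3 and 11.5, which is background. Sirpa, the CD47 receptor, had 101.4 and 65.0 in the controls against 36.1 and 47.6 at 1448534_at, a log2 difference of −1.17 in pair 1 and −0.35 in pair 2. The other probe sets of Sirpa did not share this direction, with 37.6 and 28.9 against 54 and 28.5 at 1416986_a_at, and 2.5 and 24.0 against 7.2 and 61.4 at 1416985_at. Over all 3 the mean difference of Sirpa was 0.02, so the array gives it no single direction. Havcr2, the TIM-3 receptor, had 33.3 and 34.7 against 31.7 and 11.2. Only the AID-silenced clone of pair 2 stood apart. That clone and the control clone of pair 1 lay below the bacterial controls of their arrays.

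Among the B7 family ligands, Cd274 was the 1 gene with a clear signal. It had 1771 and 871 in the controls and 1802 and 581 after AID silencing. The groups overlapped, with a log2 difference of 0.03 in pair 1 and −0.57 in pair 2, and the clones of pair 1 were higher than those of pair 2. Pdcd1lg2, the PD-L2 gene, had 27.1 and 36.0 against 33.1 and 49.6, close to the bacterial controls throughout. Cd86 had 55.6 and 28.5 against 2.8 and 2.0 at 1420404_at, and 63.6 and 4.0 against 4.6 and 1.4 at 1449858_at. Both AID-silenced clones were thus at background for Cd86. The control clone of pair 1 was above background at both probe sets, and that of pair 2 only barely at the first. Cd80, measured by 4 probe sets, had signals between 2.6 and 47.6 with overlapping groups at all 4, and its direction differed between the pairs at 3 of them. With a constant of 1, 16 or 64 added before the log, the mean difference at the brightest Cd86 probe set was −3.60, −1.62 and −0.66, which shows how little the size of a difference means at such signals.

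The difference between the pairs was not used in choosing the genes and was tested by limma over all 22519 probe sets, with pair 2 against pair 1 and 2 clones in each. The series text says the pairs were used together for extraction and hybridisation, so clone and processing cannot be told apart in this comparison. Cd274 had the largest difference relative to its error among the 6 tested member probe sets. It was lower in both clones of pair 2, at 871 and 581, than in both of pair 1, at 1771 and 1802 (log2 difference −1.31 ± 0.24, SE, n = 2 per pair, limma Benjamini-Hochberg adjusted p = 0.245). It did not pass the adjusted threshold of 0.05, which 0 of all probe sets passed (0%), while 3037 had an unadjusted p under 0.05 (13.5%). With the group as a further term, limma called 4 probe sets and adjusted p for Cd274 was 0.123, and leaving out 1 clone at a time gave 0.154 to 0.593. The pair 2 clones lay below both pair 1 clones in 26.2% of all tested probe sets. For Cd200 the difference between pairs was −0.10 ± 2.02 (SE, limma adjusted p = 0.988), an error set by the wide gap between its groups. At the 3 tested Cd47 probe sets it was 0.20, −0.41 and −0.50, with limma adjusted p between 0.740 and 0.902, and for Sirpa −0.12 with 0.932. With the group as a further term, limma adjusted p was 0.473 to 0.633 for Cd47, 0.924 for Cd200 and 0.914 for Sirpa.

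Further genes of these pathways were taken from 10 lists, of which 98 genes besides the members were measured and 55 had enough signal to be tested. Of these, 17 were higher after AID silencing in both pairs, 11 were lower and 27 went in opposite directions. That is 30.9% higher and 20% lower, against 26.7% and 27.5% of all 10475 tested genes. Their median difference was 0.06 for pair 1 and 0.10 for pair 2, against 0.00 and −0.01 over all tested genes. By limma 0 of the 55 passed the adjusted threshold in either direction, against 2 of the 10475 tested genes (0.0191%), and 3 had an unadjusted p under 0.05, against 407 (3.89%). Adding a pair block left 0 of the 55 past the adjusted threshold, against 6 of all tested genes (0.0573%). The values below therefore describe these 4 clones.

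Downstream of CD200R, 1 of 4 tested genes was higher in both pairs and 3 were opposite. Rasa1, the Ras GTPase-activating protein recruited through Dok2, had 882 and 750 in the controls and 927 and 924 after AID silencing. Dok1, Dok2 and Inpp5d, whose product is the phosphatase SHIP-1, each differed in opposite directions. In the CD47 list 2 of 8 were higher and 2 lower in both pairs. Qpctl, which encodes the glutaminyl cyclase that modifies the SIRPα-binding end of CD47, had 181 and 170 against 252 and 228, so both AID-silenced clones were higher. Ptpn6, the gene of SHP-1, differed more between the pairs than between the groups, with 1311 and 309 against 910 and 284. Bnip3, whose product has been described as a CD47 partner, had 935 and 1108 against 871 and 526.

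In the list of other ligands that restrain phagocytosis and their receptors, 4 of 10 tested genes were higher and 3 lower in both pairs. The list also holds complement regulators. Cd24a, the gene of the Siglec ligand CD24, had 6265 and 7080 in the controls and 8410 and 13410 after AID silencing. H2-D1, a class I heavy chain, had 17259 and 5315 against 19028 and 12673, and B2m, the light chain of class I molecules, 13817 and 7473 against 16057 and 13047, and for both genes the groups overlapped and the control clone of pair 2 was the lowest. Cr1l, the complement regulator Crry, was lower in both pairs, at 5339 and 3312 against 3252 and 2339. Of 7 tested genes that promote uptake, Slamf7, a receptor of plasma cells that has been described as aiding phagocytosis, was the 1 higher in both pairs, with 1932 and 814 against 2969 and 2102, and the other 6 were opposite. Calr, the gene of the uptake signal calreticulin, had 13669 and 22584 against 17139 and 21430, and the clones of pair 2 were the higher ones in both groups.

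Among the further B7 ligands only Vsir, the gene of the inhibitory ligand VISTA, had enough signal, with 399 and 387 in the controls and 687 and 976 after AID silencing. The groups did not overlap, and the differences were 0.76 and 1.30. Of the receptors of B7 ligands, Icos and Rgmb were higher in both pairs by mean differences of 0.22 and 0.18. Cd28 and Ctla4 were opposite, with 756 and 760 against 1902 and 410 for Cd28, where only the AID-silenced clone of pair 1 was high, and 107 and 324 against 252 and 213 for Ctla4. In the list on PD-L1, Cmtm6, which keeps PD-L1 at the cell surface, had 1263 and 1850 against 2289 and 2102, Irf1, which drives its interferon response, had 721 and 538 against 754 and 764, and Cdk4 differed by −0.18. That list had 3 of 8 higher, 2 lower and 3 opposite.

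Of 7 tested genes of other inhibitory pairs, 3 were higher and 3 lower in both pairs. Cd48, a ligand of CD244, had 1100 and 100.3 against 1347 and 1420, which rests on the low control clone of pair 2. Il10, the gene of an inhibitory cytokine, had 74.3 and 149 against 29.4 and 44.1, and Pvr, a ligand of TIGIT and CD226, 495 and 455 against 400 and 267. Both tested genes of the TIM-3 list, Bag6 and Fyn, were opposite. In the costimulatory TNF family Tnfrsf4, the OX40 gene, was lower in both pairs by a mean of 0.17 and 3 of 4 genes were opposite. The plot of these 55 genes shows both pairs of each.

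**Figure D3:**
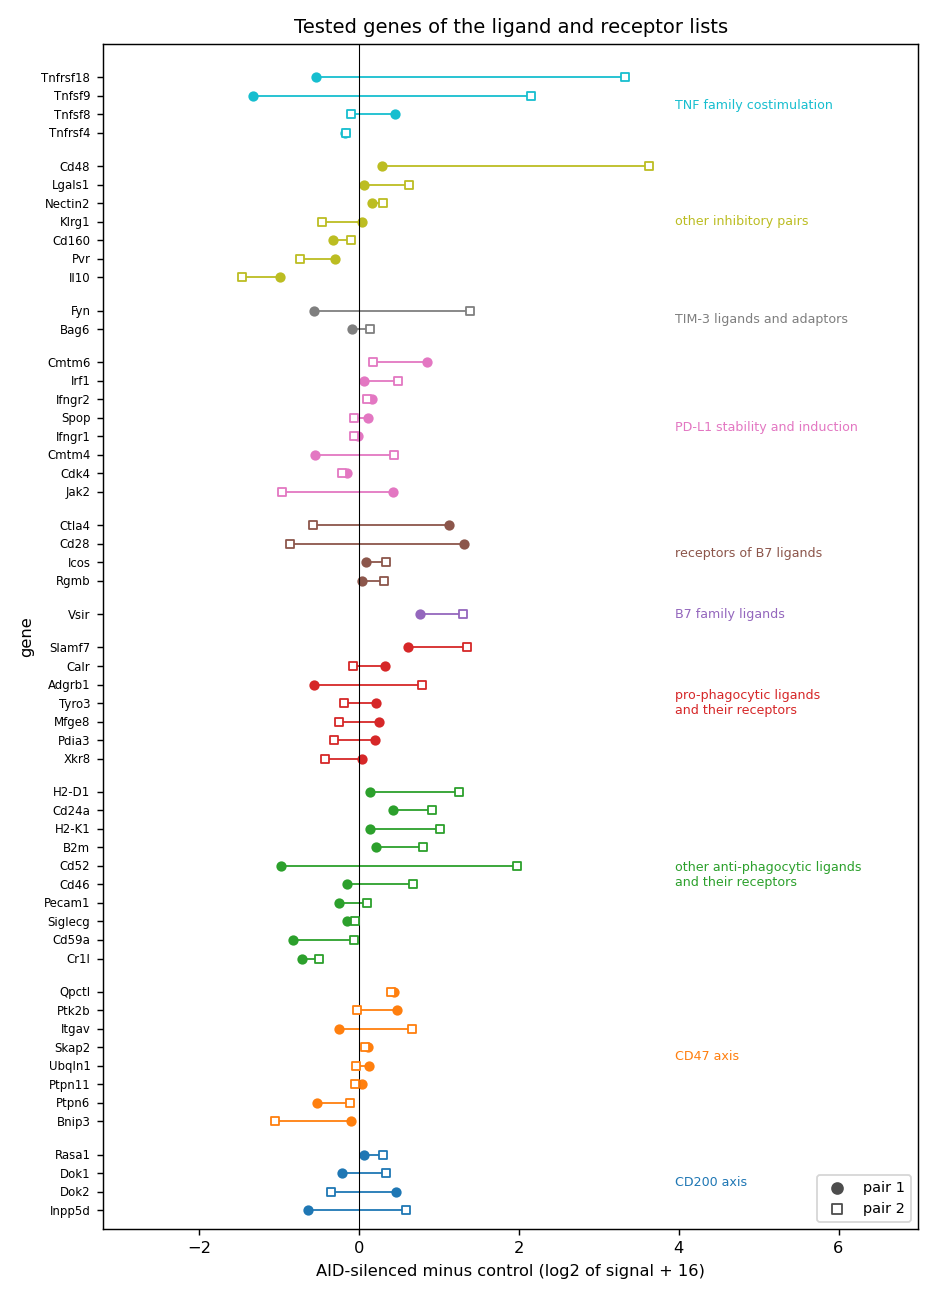
Difference between the AID-silenced and the control clone, in log2(signal + 16), for the tested genes of the 10 lists, with a filled circle for pair 1, an open square for pair 2 and a line joining them; colours mark the lists. Of the 55 genes, 27 have a line that crosses 0; Vsir, Slamf7, Cd24a and Qpctl lie to the right in both pairs, and Il10, Cr1l and Pvr to the left.

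Of the 9 genes, 5 lie on chromosome 16 in the order Cd86, Cd80, Cd200r1, Cd200 and Cd47, and Cd274 and Pdcd1lg2 lie on chromosome 19. Many genes of chromosome 16 differed between the groups in the same direction in both pairs. Of its 349 tested genes 54.7% were higher after AID silencing in both pairs and 7.74% lower, against 25.7% and 28.2% of 10089 tested genes on other chromosomes. Their median difference was 0.30 in pair 1 and 0.27 in pair 2, against −0.01 and −0.01 elsewhere. The other 131 of the 349 went in opposite directions in the 2 pairs, against 4651 of the 10089 on other chromosomes. In places such genes lay side by side. The tested genes in order from Gart, at 0.28 in pair 1 and −0.62 in pair 2, to Cryzl1, at 0.70 and −0.88, are 1 such stretch. Between Cd86 and Cd47, 36 tested genes that are no members had medians of 0.45 and 0.36, with 25 higher in both pairs, 4 lower and 7 opposite. The part of this shift in the levels of Cd200 and Cd47 was not tested. Beside these medians, the differences in pairs 1 and 2 were 4.30 and 3.83 for Cd200, and 0.90 and 1.49 for Cd47 at its brightest probe set. At the dimmer tested Cd47 probe sets they were 0.58 and 1.43 for 1428187_at and 0.82 and 1.86 for 1419554_at. The mean over all 5 Cd47 probe sets was 0.82. Both genes were chosen with these differences known.

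Around Cd200, of the 5 measured genes on each side in gene order, 3 were bright enough to be tested. Slc35a5, a sugar transporter family gene, had 501 and 374 in the controls against 847 and 636 after AID silencing. Atg3, an autophagy enzyme gene, had 4922 and 5201 against 9092 and 7255, and Abhd10, a mitochondrial hydrolase gene, had 1050 and 971 against 1689 and 1388. All 3 were higher in both AID-silenced clones than in both control clones, by mean differences between 0.59 and 0.74. The same held for 37.5% of all tested genes of chromosome 16 and 13.4% of those on other chromosomes. From Cd86 to Cd47, without the members, it held for 58.3%. Btla, the inhibitory receptor gene beside Cd200, was near background at 32.0 and 34.2 against 42.8 and 43.0, and the remaining 6, Cd200r3, Ccdc80, Gcsam, BC016579, Tagln3 and Phldb2, had signals of at most 50.2. Around Cd47, 22 measured genes further along, 7 of the 10 neighbours were tested. Of those, Cip2a, an inhibitor of the phosphatase PP2A, and Ift57, a ciliary transport gene, were higher in both pairs by means of 0.81 and 0.34. The 3 gene models with little signal, 1700026J12Rik, Gm4802 and Gm16619, were lower, by −0.24, −0.26 and −0.61, and Bbx and G730013B05Rik were opposite. The untested neighbours Gm19723, Gm6936 and Ccdc54 had signals of at most 19.1. The plot of the chromosome in gene order shows both genes among their neighbours.

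**Figure D4:**
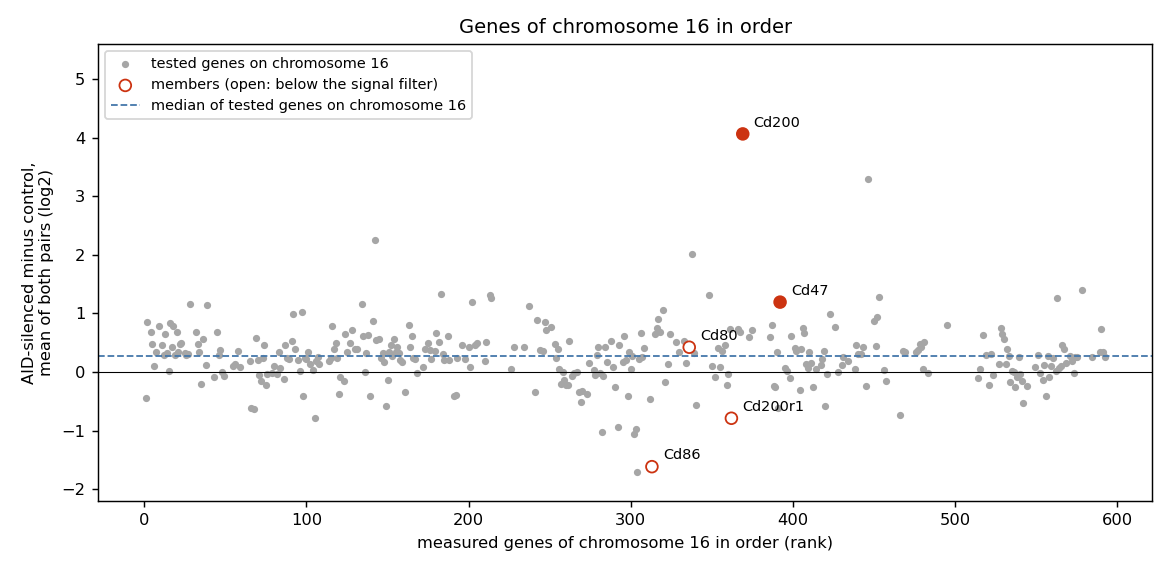
Mean difference between AID-silenced and control clones (vertical, log2) for the tested genes of chromosome 16, placed by rank in gene order (horizontal), with the 5 member genes in red, open where below the signal filter; the dashed line is the median of the tested genes, 0.27. Cd200 is the highest point, Cd47 lies above most genes, and Cd86 and Cd200r1, both dim, lie below 0.

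The genes whose profile over the 4 arrays lay closest to that of Cd200, by root mean square difference of centred log2 values among 10475 tested genes, were Rnf213 (0.34), Robo1 (0.45), 2210016F16Rik (0.73), Tmem108 (0.85) and Fchsd1 (0.85). Of these only Robo1, with 10.1 and 2.5 in the controls against 217 and 184, shares chromosome 16 with Cd200. The closest to the brightest Cd47 probe set were 1700086O06Rik (0.07), Vsir (0.08), Arsg (0.09), Eef2kmt (0.11) and Tmem169 (0.14). Eef2kmt is on chromosome 16. With 4 arrays such closeness describes 4 values.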

How the data were processed

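RNA of 4 J558 clones was measured on Affymetrix Mouse 430 2.0 arrays. Per the submitters' processing notes the authors used MAS5, and the deposited values are linear intensities, 1 for each probe set. Other steps are not given in the sources used here. Each array's 2% trimmed mean was checked and equalled 500, so no further scaling was applied. The 64 array controls were left out, 16 was added before log2, and probe sets at or above the median of mean log2 value (a share of 0.5, or 22519) were tested with limma 3.58.1 (statmod 1.5.0, R 4.3.3; trended, robust prior; Benjamini-Hochberg adjusted p under 0.05). The number of arrays, 2 per group, limits the precision. Between groups, p-values rest on the spread between the clones of a group. Between pairs they rest on the spread between the clones of a pair. Without the group as a further term, that spread includes the gap between the control and the AID-silenced clone. Genes are represented by the brightest of their probe sets. Platform symbols were used (34945 probe sets with 1 symbol, 932 with several, 9160 unnamed here). The gene identifiers of 34741 probe sets matched a RefSeq table of GRCm38.p6, used for chromosomes and gene order. The columns not used numbered 0.

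The members and lists were chosen with earlier results of these data known. Named genes were all members, up to 3 genes per list with the largest mean difference in the same direction in both pairs, 5 neighbours on each side and the 5 closest profiles. B2m, Calr, Cd28, Ctla4, Dok1, Dok2, Inpp5d, Bag6 and Fyn were named after their values were seen, and the CRE core was added to the motifs after the sequences were read. An NF-kB and an interferon-response pattern were also searched, and that search is not reported here. The titles number the pairs, and the series text says the pairs were used together for extraction and hybridisation. Deviations of pair 2 from pair 1 correlated between the groups (r = 0.306 over tested probe sets). The limma script was checked on simulated log2 values with planted changes. Their noise was normal, with a spread set by mean signal alone and no pair effect, unlike the real data. The recovery below therefore checks the script and does not measure its sensitivity in these clones. Of 50 planted log2 changes of 1 it recovered 26 between groups and 31 between pairs, and of 50 changes of 2 it recovered 50 and 49. False calls numbered 12 and 11 over 22519 probe sets. The level of the silenced gene is not reported here. Figures were drawn with matplotlib 3.10.9.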

Additional observations from a re-analysis of the deposited data

How the results depend on the processing

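Under 9 alternatives each, the difference of Cd200 ran from 2.63 to 5.48 and that of Cd47 from 0.82 to 1.44. Both genes were chosen with this difference known, so the alternatives show only how its size moves with the processing. For Cd200, with 1 probe set, the mean of probe sets repeats the main value. Cd200 was at 5.48 with a pseudocount of 1 and 2.63 with 64, because its control signals are at background, and Cd47 was at 0.82 as the mean of its probe sets. Leaving out any 1 clone gave 3.90 to 4.23 for Cd200 and 0.94 to 1.44 for Cd47. Cd200r1, Cd86 and Havcr2 stayed lower and Cd80 and Pdcd1lg2 higher, though at background signals. Sirpa turned to 0.02 as the mean of its probe sets, and Cd274 ran from −1.08 to 0.53.

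With the pair as a replicate block limma called 8 probe sets between AID-silenced and control clones in place of 2, without a trended and robust prior 0, and 0 to 146 when 1 clone was left out: 146 without the control clone of pair 1, 52 without that of pair 2, 0 without the AID-silenced clone of pair 1 and 2 without that of pair 2. Between pairs it called 4 with the group as a further term in place of 0, and 0 to 59 when 1 clone was left out, 59 without the AID-silenced clone of pair 2. The other causes were not tested. Probe sets 2-fold or more apart with 1 sign in both pairs numbered 196, and 106 with a pseudocount of 64, 642 without the signal filter and 42 with a stricter one. The list genes with the same direction in both pairs numbered 28, 52 of 98 without the filter and 15 of 32 with the stricter one, as more or fewer genes were tested. Of 70 values for single lists 52 kept within 1.5 times, 11 were larger and 7 smaller. Signal over background limits every value for members other than Cd47, Cd274 and the AID-silenced level of Cd200.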
